A study of Rattus norvegicus with 6 samples.

Results

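Neutrophil granule and receptor genes were followed in rat lung after monocrotaline (MCT), a plant alkaloid that injures the lung vessels and is given to rats to model pulmonary arterial hypertension. The 9 genes chosen by symbol were S100a8, S100a9, Lcn2, Csf3r, Fpr1, Camp, Ngp, Mpo and Cd177, of 23802 genes in the deposited table. Of these, 8 were matched with 1 identifier each, 6 had enough counts to be tested among 15250 tested genes, and Cd177 is not analysed here. PolyA RNA was sequenced from whole lung of wild-type male Sprague-Dawley rats of 200 to 250 g. The MCT group held 3 samples taken 4 weeks after 1 injection of 60 mg/kg MCT, and the control group held 3 samples from rats given an equal volume of saline. The labels give the MCT route as intraperitoneal in one place and subcutaneous in another, while saline is given as subcutaneous. The labels do not state whether samples came from separate animals, and the p-values therefore speak of variation among these libraries, which may be technical.

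Neutrophils are short-lived white cells made in bone marrow and stored in part within the vessels of the lung. They build their granules in order while they mature. Primary granules with myeloperoxidase and serine proteases come first, then secondary granules with cathelicidin and lipocalin 2, and transcripts of the primary granule proteins are largely shut off before the cells leave the marrow. Mature cells instead carry abundant S100a8 and S100a9 transcripts, which encode the subunits of calprotectin, and surface receptors for growth factors, chemokines and bacterial peptides. Some of these genes are also used by other cells: Lcn2 by epithelium and macrophages, and S100a8 and S100a9 by monocytes.

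Summed estimated counts were 14668886, 17096157 and 14332930 in MCT replicates 1 to 3 and 15336719, 13525912 and 17916134 in control replicates 1 to 3, so that 1 count equals 0.0539 to 0.0745 CPM. Levels below are CPM, counts scaled to a common library size, after normalization by the trimmed mean of M-values (TMM). Fold changes are MCT over control from edgeR's quasi-likelihood test over all tested genes. Calls use a threshold of 0.05 on the p adjusted by the Benjamini-Hochberg method. Markers of lung tissue were abundant, the alveolar type 2 list summing to 15538 to 25071 CPM in MCT samples and 26470 to 28618 CPM in controls. Along the leading principal component, with 58.9% of the variance, the groups lay apart and MCT replicate 1 was farthest from the controls.

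Among the 6 tested members 1 was called higher in MCT lungs, where 8.01% of all tested genes were, and 0 were called lower, where 5.11% of all tested genes were. At an unadjusted p under 0.05 (edgeR) 4 members were higher and 0 lower, and DESeq2 and limma-voom also called 0 lower. The share of all tested genes at this unadjusted threshold is not given here, so the 4 cannot be set against 8.01%. The called gene was Lcn2, whose product lipocalin 2 binds bacterial iron carriers. Lcn2 (ENSRNOG00000013973) stood at 2524, 724 and 1449.6 CPM in MCT replicates 1 to 3 and at 86.9, 145 and 49.8 CPM in control replicates 1 to 3. Every MCT sample lay well above every control, and MCT replicate 1 was the highest. The means were 1566 ± 905 CPM in MCT lungs and 94.0 ± 48.2 CPM in controls (SD, n = 3 each). Lcn2 rose 16.7-fold (log2 fold change 4.06, SE 0.54, adjusted p = 0.0034, edgeR quasi-likelihood test). The call held when any 1 sample was left out, with log2 fold changes of 3.54 to 4.52. In a bulk sample more cells of a type and more transcript per cell cannot be told apart.

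The calprotectin genes were high in 1 MCT sample. S100a9 (ENSRNOG00000011483) stood at 456, 36.5 and 22.4 CPM in MCT replicates 1 to 3 and at 18.8, 27.6 and 16.01 CPM in control replicates 1 to 3. MCT replicate 1 was 12.5-fold above MCT replicate 2 and 20.3-fold above MCT replicate 3, and MCT replicate 3 lay within the range of the controls. S100a8 (ENSRNOG00000011557) stood at 84.7, 7.82 and 9.53 CPM in MCT replicates 1 to 3 and at 6.12, 10.7 and 4.04 CPM in control replicates 1 to 3. Here both MCT replicate 2 and MCT replicate 3 lay within the control range. These S100a8 values rest on 1249, 132 and 136 counts in the MCT samples and 92, 144 and 75 counts in the controls.

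Neither calprotectin gene passed the test. The log2 fold change of S100a9 was 3.05 (SE 1.02, adjusted p = 0.086, edgeR) and that of S100a8 was 2.30 (SE 0.88, adjusted p = 0.12, edgeR). Without MCT replicate 1 these values became 0.51 (adjusted p = 0.317, edgeR) for S100a9 and 0.33 (adjusted p = 0.671, edgeR) for S100a8. With MCT replicate 1 kept and another MCT sample left out, S100a9 passed without MCT replicate 2 (adjusted p = 0.0416, edgeR) and without MCT replicate 3 (adjusted p = 0.0452, edgeR). S100a8 passed without MCT replicate 2 (adjusted p = 0.0479, edgeR) and not without MCT replicate 3 (adjusted p = 0.0909, edgeR). With all samples limma-voom gave smaller log2 differences, 1.85 for S100a9 (adjusted p = 0.282) and 1.54 for S100a8 (adjusted p = 0.322), and limma on log2(FPKM + 1) gave 1.80 for S100a9 (adjusted p = 0.25) and 1.47 for S100a8 (adjusted p = 0.267). DESeq2 gave neither gene a p-value.

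**Figure D1:**
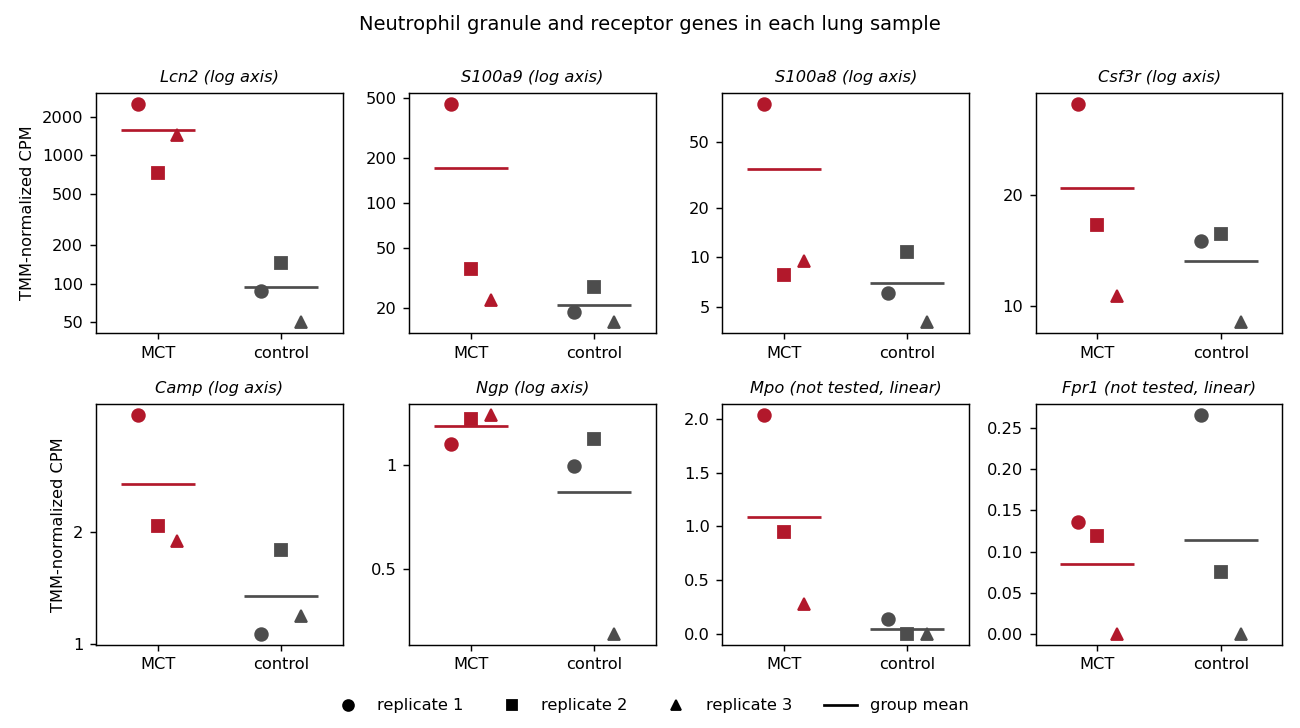
Level of each member in each lung sample, as TMM-normalized CPM, with MCT samples in red, controls in grey, symbols for replicates and a line for the group mean. The 3 MCT samples lie above the controls for Lcn2, while for S100a9 and S100a8 MCT replicate 1 stands alone at 456 and 84.7 CPM.

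The start regions of Lcn2 and S100a9 are shown because the pair differed in pattern, that of Cxcl6 because its pattern over the samples was nearest to S100a9, and that of Csf3r as the receptor gene among the members. Each run covers 250 bases before and 50 bases from the annotated start, from RefSeq on build GRCr8, while the deposited table was made on Rnor_6.0. Capitals mark matches on either strand to GGG, any 5 bases and CC (the NF-kB-type letters), TTGCNNAA (a C/EBP-type site), GAGGAA (a PU.1-type core) or TATAAA. These motifs were chosen after the sequences were seen.
Lcn2, chr3:36081731-36082030, minus strand: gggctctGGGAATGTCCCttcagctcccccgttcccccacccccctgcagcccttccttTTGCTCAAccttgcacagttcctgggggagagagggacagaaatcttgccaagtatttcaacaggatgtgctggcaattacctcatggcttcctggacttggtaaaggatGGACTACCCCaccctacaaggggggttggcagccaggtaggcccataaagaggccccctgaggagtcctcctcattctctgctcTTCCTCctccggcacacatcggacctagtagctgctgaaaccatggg
S100a9, chr2:178490573-178490872, minus strand: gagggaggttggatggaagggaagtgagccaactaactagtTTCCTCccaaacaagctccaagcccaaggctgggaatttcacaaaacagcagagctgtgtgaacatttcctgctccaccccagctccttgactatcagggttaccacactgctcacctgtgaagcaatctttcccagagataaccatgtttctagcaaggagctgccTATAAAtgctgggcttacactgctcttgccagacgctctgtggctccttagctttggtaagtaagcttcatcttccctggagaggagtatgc
Cxcl6, chr14:17596368-17596667, minus strand: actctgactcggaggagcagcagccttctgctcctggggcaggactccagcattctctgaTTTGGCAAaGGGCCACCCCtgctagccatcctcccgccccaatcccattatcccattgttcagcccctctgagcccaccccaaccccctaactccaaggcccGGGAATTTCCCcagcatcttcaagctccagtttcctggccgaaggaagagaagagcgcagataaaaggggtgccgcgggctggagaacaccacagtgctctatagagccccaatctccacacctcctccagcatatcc
Csf3r, chr5:143582970-143583269, plus strand: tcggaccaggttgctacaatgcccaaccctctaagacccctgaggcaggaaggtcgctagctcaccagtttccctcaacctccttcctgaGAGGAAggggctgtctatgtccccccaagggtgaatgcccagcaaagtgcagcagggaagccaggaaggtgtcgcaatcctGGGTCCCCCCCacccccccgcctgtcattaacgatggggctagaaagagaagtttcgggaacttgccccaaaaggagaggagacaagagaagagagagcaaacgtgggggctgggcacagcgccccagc

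The Lcn2 region held GGGAATGTCC from -243 to -234 and TTGCTCAA from -191 to -184 relative to the start. Each match is a run of letters, not a measured binding site. Cxcl6 held GGGAATTTCC from -88 to -79. The S100a9 region held TATAAA from -42 to -37 and the PU.1-type core, and the NF-kB-type and C/EBP-type letters were not found in this window. Csf3r held the PU.1-type core from -160 to -155 and NF-kB-type letters from -79. Over all 33469 RefSeq start regions of this length, 47.3% held the NF-kB-type letters, 10.6% TTGCNNAA, 27.6% GAGGAA and 14.2% TATAAA, so such matches are common. The NF-kB-type letters overlap their own reverse complement, and 1 site can match on both strands. Start regions were found for 8 of the 9 listed symbols.

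The receptor genes had lower levels and no called change. Csf3r (ENSRNOG00000008759), the receptor of granulocyte colony-stimulating factor that drives neutrophil production, stood at 35.4, 16.5 and 10.6 CPM in MCT replicates 1 to 3 and at 15.04, 15.7 and 9.005 CPM in control replicates 1 to 3. MCT replicate 1 lay above all controls, MCT replicate 2 just above them and MCT replicate 3 within their range. Csf3r had a value of 0.66 on the log2 scale (SE 0.41, adjusted p = 0.325, edgeR), which was 0.05 without MCT replicate 1 (adjusted p = 0.949, edgeR). Fpr1 (ENSRNOG00000011174), the receptor for formyl peptides shed by bacteria and damaged mitochondria, had 2, 2 and 0 counts in MCT replicates 1 to 3 and 4, 1 and 0 counts in control replicates 1 to 3. Summed over the groups, 4 Fpr1 counts in MCT lungs stood against 5 in controls. The depth-scaled ratio was 0.819 with an exact 95% counting interval of 0.163 to 3.81. This interval covers counting error only, and Fpr1 fell below the filter on low counts.

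Camp and Ngp, of the secondary granules, were low and did not pass the test. Camp (ENSRNOG00000020733), the cathelicidin gene, stood at 4.14, 2.07 and 1.89 CPM in MCT replicates 1 to 3 and at 1.06, 1.79 and 1.19 CPM in control replicates 1 to 3. All MCT samples lay above all controls, though MCT replicate 3 by little. The log2 fold change was 1.01 (SE 0.42) and did not pass (adjusted p = 0.147, edgeR), and it was 0.57 without MCT replicate 1 (adjusted p = 0.46, edgeR). Ngp (ENSRNOG00000024330), a secondary granule protein related to the cathelicidins, stood at 1.15, 1.36 and 1.40 CPM in MCT replicates 1 to 3 and at 0.998, 1.19 and 0.324 CPM in control replicates 1 to 3. Ngp was the tested member in which MCT replicate 1 was the lowest of the MCT samples, and the groups overlapped. For Ngp the difference was 0.67 on the log2 scale (SE 0.49, adjusted p = 0.402, edgeR), on 17 to 23 counts in MCT samples and 6 to 16 counts in controls.

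Mpo (ENSRNOG00000008310), whose product myeloperoxidase is stored in primary granules and makes hypochlorous acid once released, had 30, 16 and 4 counts in MCT replicates 1 to 3 and 2, 0 and 0 counts in control replicates 1 to 3. Each MCT sample had more Mpo counts than any control, but the gene fell below the filter on low counts. Summed over the groups, 50 counts in MCT lungs stood against 2 counts in controls, a depth-scaled ratio of 25.6 with an exact 95% counting interval of 6.73 to 217. This interval covers counting error only, not the spread between samples. With no filter on low counts Mpo was called higher (log2 fold change 4.42, SE 1.12, adjusted p = 0.0336, edgeR), and DESeq2 called it as well (adjusted p = 0.00879). Leaving out 1 sample, where the filter then kept Mpo, gave a call when MCT replicate 3 was out (adjusted p = 0.0283, edgeR) but none when a control was out (adjusted p = 0.0566 to 0.124, edgeR).

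The groups did not overlap for Lcn2 and Camp among the tested members, both with MCT higher, which was also the case for 18.4% of all tested genes. The median log2 fold change of the 6 tested members was 1.65, and that of all tested genes was -0.01. Leaving out MCT replicate 1 brought the fitted log2 values of S100a9, S100a8 and Csf3r to 0.51 or less, while Lcn2 stood at 3.54 and Ngp at 0.75.

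**Figure D2:**
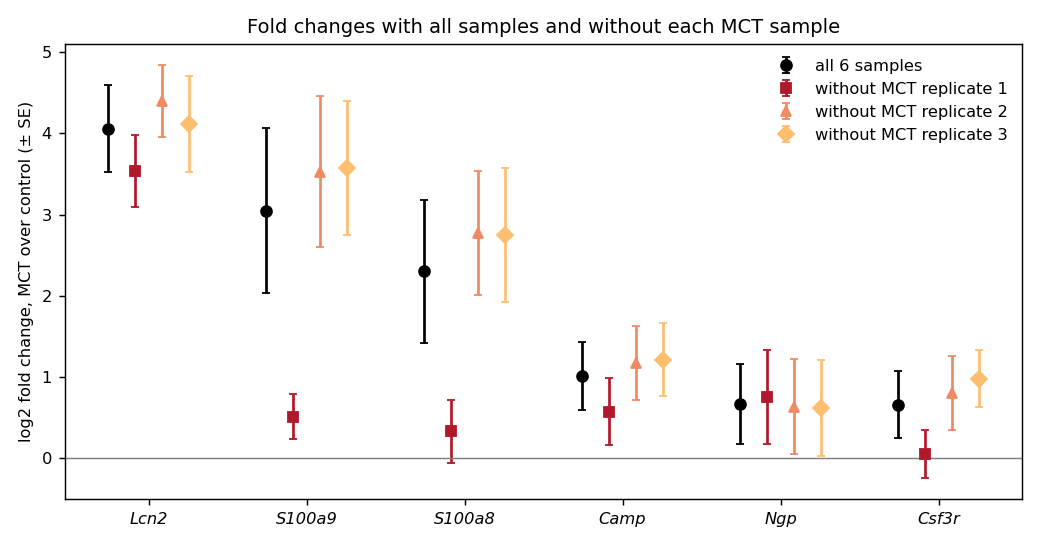
Log2 fold change of MCT over control with its standard error for the 6 tested members, fitted with all 6 samples and without each MCT sample in turn. Without MCT replicate 1, S100a9 stands at 0.51 and S100a8 at 0.33, while Lcn2 stays at 3.54.

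Levels were compared between genes per transcript length, in the authors' FPKM. In MCT lungs the mean FPKM was 1761 ± 1032 for Lcn2, 326 ± 469 for S100a9, 90.5 ± 117 for S100a8, 5.09 ± 3.20 for Csf3r, 3.62 ± 1.71 for Camp and 1.18 ± 0.115 for Ngp (SD, n = 3). In controls the order was the same, with a mean FPKM of 105 ± 52.9 for Lcn2, 39.3 ± 10.9 for S100a9, 18.4 ± 8.84 for S100a8, 3.23 ± 0.829 for Csf3r, 1.81 ± 0.509 for Camp and 0.757 ± 0.407 for Ngp (SD, n = 3). In MCT lungs the neighbours Lcn2 and S100a9, S100a9 and S100a8, and Csf3r and Camp overlapped in range, and in controls Csf3r and Camp did. The FPKM ratio of Lcn2 to S100a9 within a sample was 3.29, 11.8 and 38.4 in MCT replicates 1 to 3 and 2.75, 3.13 and 1.85 in control replicates 1 to 3. MCT replicate 1, with the most of both transcripts, had a ratio just above the controls, and MCT replicates 2 and 3 had more Lcn2 per S100a9 than any control.

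The spread between MCT samples differed greatly among the members. On the log2(CPM + 0.5) scale the SD over the 3 MCT samples was 2.32 for S100a9, 1.86 for S100a8, 0.902 for Lcn2, 0.854 for Csf3r, 0.523 for Camp and 0.109 for Ngp. The same SD over the 3 controls was 0.393 for S100a9, 0.655 for S100a8, 0.769 for Lcn2, 0.428 for Csf3r, 0.29 for Camp and 0.556 for Ngp. Over all tested genes the median SD was 0.202 in MCT samples and 0.191 in controls. The MCT value of S100a9 lay at the 99.9th percentile of all tested genes, that of S100a8 at the 99.8th, Lcn2 at the 98.05th, Csf3r at the 97.6th, Camp at the 89.7th and Ngp at the 22.0th. Lcn2 was about as variable in controls, likewise at the 98.05th percentile of all tested genes.

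**Figure D3:**
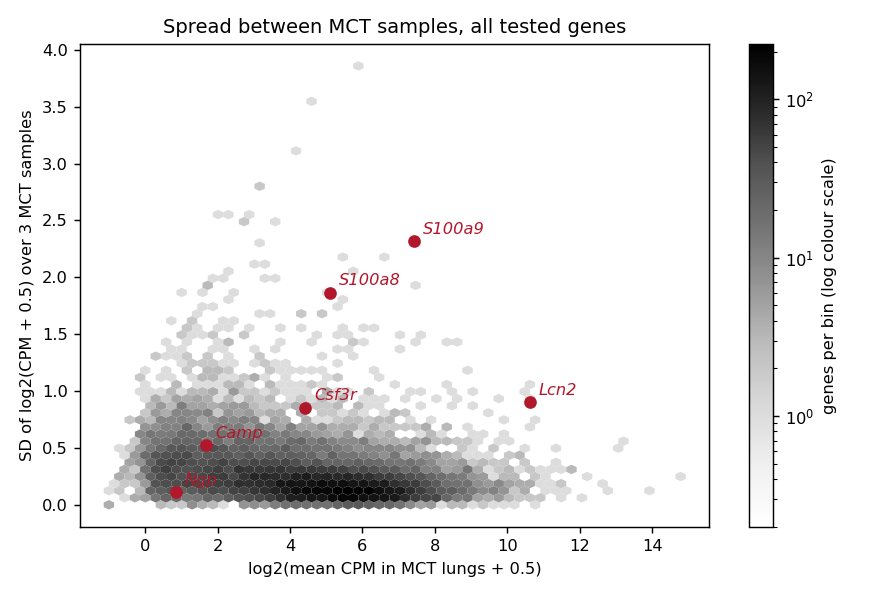
SD of log2(CPM + 0.5) over the 3 MCT samples against mean level in MCT lungs for all tested genes, as grey bins, with the tested members in red. S100a9 at 2.32 and S100a8 at 1.86 stand above most genes of like level, and Ngp at 0.109 lies low among them.

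The other genes of neutrophil biology gave 30 called higher and 2 called lower of 95 tested in 8 lists, against 8.01% and 5.11% of all tested genes, with a median log2 fold change of 0.53. Without MCT replicate 1, 22 of the same 30 were called higher and the median was 0.215. Of the list genes, 38 were called higher without MCT replicate 2 and 22 without MCT replicate 3. With control replicates 1 to 3 left out in turn, 23, 22 and 15 were called higher. Fewer calls were thus not particular to leaving out MCT replicate 1. The lists with 0 called lower by edgeR had 0 lower by DESeq2 and limma-voom too, and at an unadjusted p under 0.05 only the chemoattractant list, with 2, and the transcription factor list, with 1, held lower genes. For these unadjusted counts too the share of all tested genes is not given here. MCT replicate 1 was the highest MCT sample for 56 of these 95 genes, against 35.7% of all tested genes. It was at least 2-fold above both other MCT samples for 16 of them, against 1.39% of all tested genes.

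Subunits of the NADPH oxidase, with which phagocytes make superoxide, rose in 6 of 7 tested genes, and 0 fell. Cybb, its catalytic subunit, rose 1.80-fold, to 273 ± 33.6 CPM in MCT lungs, against 152 ± 3.33 CPM in controls (SD, n = 3). Cyba, the membrane partner of Cybb, rose by 0.88 (log2). Without MCT replicate 1, 4 of the 7 were called, and the fits without another sample are not given here for this list. Macrophages express these subunits too.

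Among other surface receptors, 8 of 24 rose, 1 fell and 15 did not pass. C5ar1, the receptor of the complement fragment C5a, rose 3.01-fold and was even across MCT samples, at 86.0, 76.3 and 79.2 CPM in MCT replicates 1 to 3 and 32.7, 24.4 and 23.2 CPM in control replicates 1 to 3. Trem1, an amplifying receptor of myeloid cells, rose by 1.42 and Cd14, a receptor for bacterial endotoxin, by 1.42 (log2). Itgb2, the integrin chain of adherent leukocytes, rose 1.54-fold, and lost its call when control replicate 3 (adjusted p = 0.0629, edgeR) or MCT replicate 3 (adjusted p = 0.0535, edgeR) was left out. The receptor that fell was Fpr3, of the formyl peptide receptor family, by 2.10 (log2), named after its values were seen. It had 9, 17 and 6 counts in MCT replicates 1 to 3 and 30, 64 and 41 counts in control replicates 1 to 3. The Fpr3 call was lost when control replicate 2, control replicate 3 or MCT replicate 3 was left out.

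A pair of receptors typical of neutrophils, named after their values were seen, did not pass. Cxcr2, the chemokine receptor that draws neutrophils into tissue, stood at 6.17, 0.711 and 0.42 CPM in MCT replicates 1 to 3 and at 0.932, 1.71 and 0.593 CPM in control replicates 1 to 3 (adjusted p = 0.434, edgeR). Il1r2, a decoy receptor for interleukin 1, stood at 25.6, 5.87 and 3.50 CPM in MCT replicates 1 to 3 and at 3.13, 2.01 and 0.917 CPM in control replicates 1 to 3 (adjusted p = 0.0608, edgeR). In both genes MCT replicate 1 was far above the rest. For Il1r2 the other MCT samples also lay above the controls, whereas for Cxcr2 MCT replicates 2 and 3 did not.

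Of 4 tested non-member genes of the primary granule list, 1 rose, 0 fell and 3 did not pass. Cd63, a granule and lysosome membrane protein found in many cells, rose 1.93-fold, and was not called when control replicate 2 (adjusted p = 0.0561, edgeR) or control replicate 3 (adjusted p = 0.0535, edgeR) was left out. The protease inhibitor gene Serpinb1a stood at a log2 difference of 0.65 (adjusted p = 0.129, edgeR) and the protease-activating Ctsc 0.31 (adjusted p = 0.306, edgeR). Of the serine protease genes of this granule, Prtn3 was tested and not called (adjusted p = 0.337, edgeR). Ctsg had 50, 2 and 4 counts in MCT replicates 1 to 3 and 0 in every control, and Elane had 14, 0 and 1 counts in MCT replicates 1 to 3 and 1, 2 and 1 counts in control replicates 1 to 3. Against a floor of 3 counts over the control group, the summed Ctsg counts were at least 19.1-fold higher in MCT lungs, nearly all of it from MCT replicate 1. This bound allows for counting error in the controls only, not for the spread between samples. Ctsg, Elane and Prtn3 were named after their values were seen.

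In the secondary and tertiary granule list 4 of 10 tested non-members rose and 0 fell. Chi3l1, a chitinase-like protein, rose 3.73-fold, Hp, the haptoglobin gene, 3.14-fold and Cyba as given above. Arg1 was the fourth, named after its values were seen, and its call ended without MCT replicate 1. For Arg1 the fits without another sample are not given here. Chi3l1 did not pass when control replicate 1 (adjusted p = 0.0505, edgeR), control replicate 3 (adjusted p = 0.0681, edgeR) or MCT replicate 3 (adjusted p = 0.052, edgeR) was left out. Lyz2, a lysozyme gene of macrophages and alveolar cells as well, was the most abundant, with a log2 difference of -0.27 (adjusted p = 0.538, edgeR). Ltf, the lactoferrin gene and a standard secondary granule marker, had 0 counts in every sample.

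Among cytosolic proteins 4 of 12 non-members rose, 0 fell and 8 did not pass. Hdc, which makes histamine in mast cells as well as neutrophils, rose 3.60-fold. Il1rn, the interleukin 1 receptor antagonist, rose by 1.38 (log2), but not past the threshold when control replicate 2 (adjusted p = 0.0561, edgeR) or control replicate 3 (adjusted p = 0.0539, edgeR) was left out. Retnlg, a resistin-like gene of mouse neutrophils, had 56, 16 and 17 counts in MCT replicates 1 to 3 and 5, 5 and 2 counts in control replicates 1 to 3. It rose by 2.88 (log2, SE 0.71, adjusted p = 0.0332, edgeR), but the call ended without any 1 sample other than MCT replicate 2 (adjusted p = 0.0506 to 0.123, edgeR) and with limma-voom on all samples (adjusted p = 0.0562). S100a11, named after its values were seen, was the fourth, and its call ended without MCT replicate 1. For S100a11 the fits without another sample are not given here. S100a6, the most abundant of the list, stood at a log2 difference of -0.35 (adjusted p = 0.197, edgeR).

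**Figure D4:**
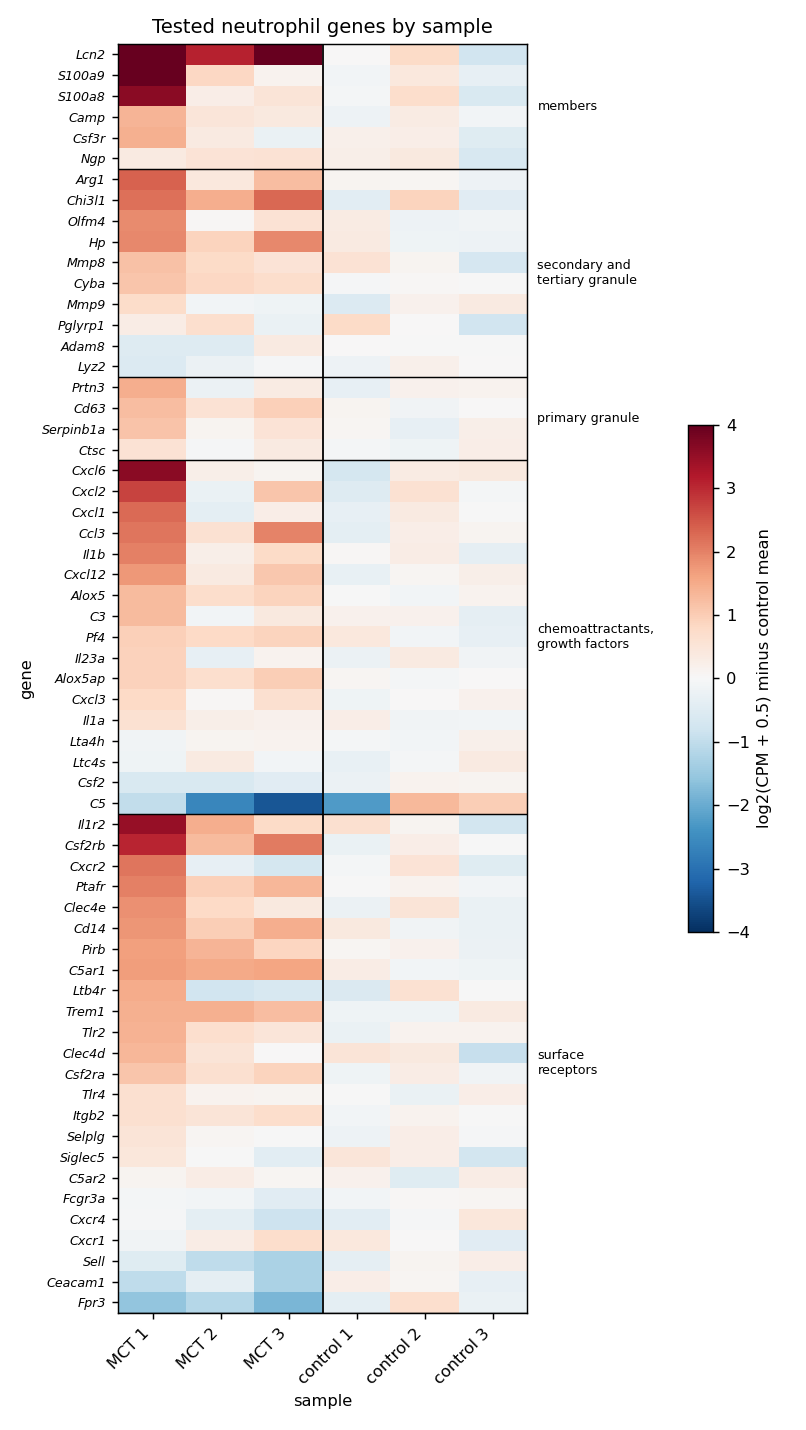
Tested members and tested genes of 4 neutrophil lists in each sample, coloured by log2(CPM + 0.5) minus the control mean with the colour scale ending at 4, and ordered within a list by MCT replicate 1. Lcn2 is red in all 3 MCT samples and C5ar1 evenly so, whereas S100a9, S100a8, Cxcl6, Cxcl1 and Cxcr2 are red mainly in MCT replicate 1.

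In the list of chemoattractants and growth factors 4 of 17 rose, 0 fell and 13 did not pass. Alox5ap and Alox5, which start leukotriene synthesis, rose by 0.87 and 0.98 (log2). Ccl3, a macrophage chemokine, rose by 1.77 (log2), a call lost without MCT replicate 1 (adjusted p = 0.0655, edgeR), without MCT replicate 3 (adjusted p = 0.0693, edgeR) and without any 1 of the controls (adjusted p = 0.0653 to 0.0783, edgeR). Ccl3 was also not called by limma-voom with all samples (adjusted p = 0.0617). Cxcl12, named after its values were seen, was the fourth and was not called without MCT replicate 1. For Cxcl12 the fits without another sample are not given here. C3, the central complement component, stood at a log2 difference of 0.61 (adjusted p = 0.246, edgeR).

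Cxcl6 and Cxcl1, ligands of the neutrophil chemokine receptors, were highest in MCT replicate 1 and did not pass. Cxcl6 (ENSRNOG00000002843) stood at 25.6, 2.02 and 1.82 CPM in MCT replicates 1 to 3 and at 0.7985, 2.16 and 2.32 CPM in control replicates 1 to 3 (adjusted p = 0.14, edgeR). Cxcl1 stood at 100.3, 15.3 and 24.4 CPM in MCT replicates 1 to 3 and at 16.04, 26.3 and 19.9 CPM in control replicates 1 to 3 (adjusted p = 0.235, edgeR). In both, MCT replicates 2 and 3 were near or within the control range. Il6 had 109, 8 and 27 counts in MCT replicates 1 to 3 and 1, 2 and 7 counts in control replicates 1 to 3. Csf3, the ligand of Csf3r, had 12, 1 and 0 counts in MCT replicates 1 to 3 and 0, 1 and 0 counts in control replicates 1 to 3. Of the 17 tested genes of this list, 13 were highest in MCT replicate 1 among the MCT samples, against 35.7% of all tested genes. The 2 lower at an unadjusted p under 0.05, where 9 were higher, were Csf2 and C5, neither called. Csf2 stood at 1.09, 1.07 and 1.26 CPM in MCT replicates 1 to 3 and at 1.53, 2.16 and 2.10 CPM in control replicates 1 to 3 (adjusted p = 0.162, edgeR). C5 had a log2 fold change of -2.84 with overlapping groups (adjusted p = 0.0873, edgeR). Cxcl1, Il6, Csf3, Csf2 and C5 were named after their values were seen.

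Of 11 tested adhesion genes with which endothelium holds neutrophils, 2 rose, 1 fell and 8 did not pass. Vcam1, a ligand for leukocyte integrins, rose 2.68-fold, to 174 ± 34.4 CPM in MCT lungs, against 65.1 ± 3.61 CPM in controls (SD, n = 3). Jam3 rose by 0.91 (log2), and Jam2 fell by 1.04, a call lost without control replicate 2, control replicate 3 or MCT replicate 3 (adjusted p = 0.0537 to 0.0664, edgeR). Icam1, the most abundant, stood at a log2 difference of 0.13 (adjusted p = 0.656, edgeR). Among 11 transcription factors of granulocyte formation, 2 rose and 0 fell. Irf8, which in mouse favours monocytes over granulocytes, rose by 1.05 and Spi1, the gene of PU.1, by 0.72 (log2). The Irf8 call ended without control replicate 3 (adjusted p = 0.0516, edgeR) while Spi1 lost its call when control replicate 1, control replicate 3, MCT replicate 1 or MCT replicate 3 was out (adjusted p = 0.0761 to 0.11, edgeR). With the replicate number as a block, the calls of Ccl3 (adjusted p = 0.0563, edgeR) and Spi1 (adjusted p = 0.0632, edgeR) also ended. Lef1 had -0.63 (adjusted p = 0.152, edgeR), and Cebpd, the most abundant, 0.31 (adjusted p = 0.647, edgeR), which turned to -0.02 without control replicate 3 and to -0.09 without MCT replicate 1.

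The genes nearest to each member over the 6 samples differed between Lcn2 and the calprotectin genes. Likeness was the root mean square difference of log2(CPM + 0.5) after each gene was centred on its own mean, over 11092 named genes with a mean of at least 5 CPM. Cxcl6 was nearest to both S100a9, at 0.522, and S100a8, at 0.536. The 3 genes nearest to Lcn2 were Tpsb2, a mast cell tryptase, at 0.322, Mrgprx2, in human a mast cell receptor, at 0.383 and Tph1, which starts serotonin synthesis, at 0.433. Tpsb2 stood at 278, 41.8 and 112 CPM in MCT replicates 1 to 3 and at 5.46, 7.67 and 3.24 CPM in control replicates 1 to 3. Its reads may be shared with its close copy Tpsab1. Like Lcn2, it was highest in MCT replicate 1, then MCT replicate 3, then MCT replicate 2. The nearest to Csf3r was Hpx at 0.162, to Camp the leukocyte integrin gene Itgad at 0.11 and to Ngp the membrane repair gene Dysf at 0.14. Lists of 6 values leave many genes alike, and nothing on shared control follows from these distances.

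Beside the members, markers of other cell types were summed per sample. The 8 neutrophil markers that are no members, with 1 called higher (Retnlg, not called by limma-voom) and 0 lower, summed to 66.0, 29.8 and 23.0 CPM in MCT replicates 1 to 3 and 27.9, 31.4 and 28.8 CPM in control replicates 1 to 3. MCT replicate 1 was thus above the controls and MCT replicates 2 and 3 were near or below them. The mast cell list, with 7 of 8 tested genes called higher and 1 lower, summed to 2071, 652 and 1191 CPM in MCT replicates 1 to 3 and 220, 270 and 243 CPM in control replicates 1 to 3. The lower gene was Kit, named after its values were seen, at 160, 115 and 119 CPM in MCT replicates 1 to 3. In control replicates 1 to 3 Kit stood at 179, 238 and 218 CPM, most of each control sum. The mast cell sum therefore does not give the size of the rise of the other genes in it. The macrophage list, with 9 of 10 tested genes called higher and 0 lower, summed to 1954, 1307 and 1355 CPM in MCT replicates 1 to 3 and 654, 528 and 548 CPM in control replicates 1 to 3. Both were higher in every MCT sample, as Lcn2 was, with MCT replicate 1 the highest.

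The monocyte list, with 2 of 8 tested genes called higher and 1 lower, summed to 482, 415 and 349 CPM in MCT replicates 1 to 3 and 490, 556 and 586 CPM in control replicates 1 to 3. Cd14 (2.68-fold) and Vcan (5.16-fold) were higher. Ace was lower, at 153, 226 and 115 CPM in MCT replicates 1 to 3 and 328, 337 and 403 CPM in control replicates 1 to 3. Ace had the highest CPM of the list in every sample, so the sum does not speak for each gene in it. Vcan and Ace were named after their values were seen. The eosinophil and basophil list summed to 377, 111 and 202 CPM in MCT replicates 1 to 3 and 13.2, 9.01 and 8.03 CPM in control replicates 1 to 3. Its called genes, 2 of 3 tested, were Mcpt8 and Ms4a2, which mast cells share, while Prg3 and Ear1 were at 0 in all samples. The list of immature granulocytes, which holds Mpo, Camp and Ngp, summed to 16.3, 5.87 and 6.16 CPM in MCT replicates 1 to 3 and 3.33, 5.59 and 3.02 CPM in control replicates 1 to 3. Its markers Ms4a3 and Ltf had 1 and 0 counts in all samples together.

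The lung structural lists were lowest in MCT replicate 1. The airway secretory list, which marks a known epithelial source of Lcn2, summed to 6589.7, 8906 and 12570 CPM in MCT replicates 1 to 3 and 13056, 14163 and 8293 CPM in control replicates 1 to 3. Scgb1a1 alone gave 6064, 8570 and 11641 CPM in MCT replicates 1 to 3 and 12505, 13508 and 7903 CPM in control replicates 1 to 3. Of the 6 tested genes of the list 1 was called higher (Bpifb1) and 1 lower (Scgb3a1), and Ltf was at 0. Bpifb1 stood at 62.7, 11.9 and 79.9 CPM in MCT replicates 1 to 3 and at 12.7, 12.7 and 9.38 CPM in control replicates 1 to 3. Scgb3a1 fell by 2.29 (log2). These 3 genes were named after their values were seen. MCT replicate 1 was the lowest sample for the airway secretory, alveolar type 2, alveolar type 1 and endothelium lists, at 0.557, 0.57, 0.568 and 0.485 of the control mean. The erythroid and blood list summed to 1798, 5515 and 1554 CPM in MCT replicates 1 to 3 and 2192, 2922 and 1934 CPM in control replicates 1 to 3, so that MCT replicate 2, not MCT replicate 1, was highest. The part of mast cells, macrophages, blood or lung tissue share in the levels of the members was not tested.

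**Figure D5:**
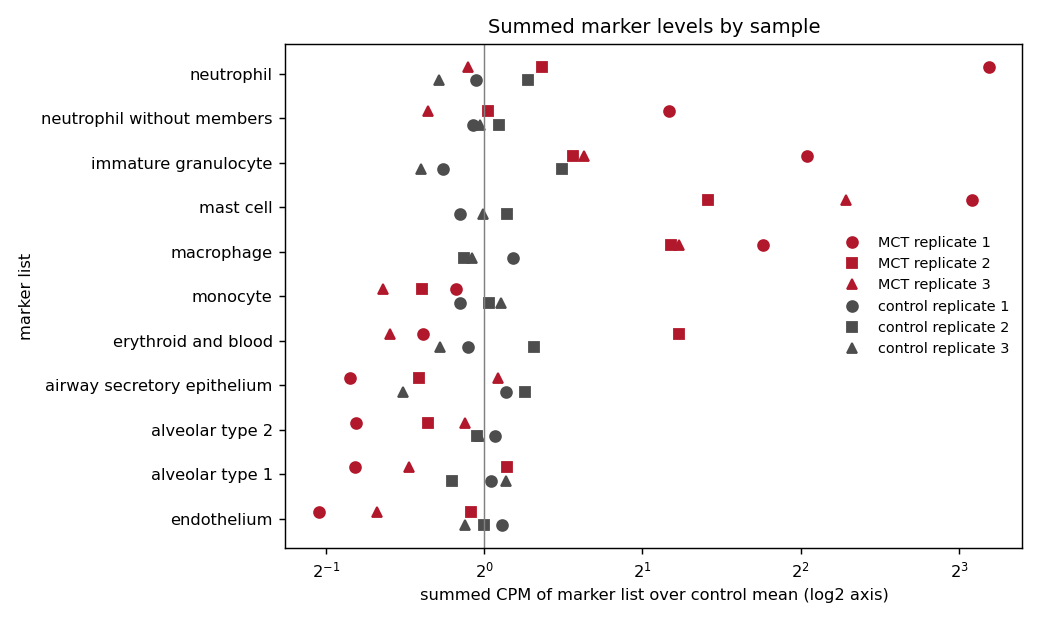
Summed CPM of each marker list in each sample over the mean of the controls, on a log2 axis, with MCT samples in red above controls in grey. For neutrophil markers that are no members MCT replicate 1 stands apart at 2.25, while the mast cell and macrophage sums are above the controls in all 3 MCT samples. With members it stands at 9.12, which mostly repeats S100a9 and S100a8, at 456 and 84.7 of the 642 CPM summed in MCT replicate 1.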

How the data were processed

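PolyA RNA-seq of whole rat lung was analysed in 3 MCT and 3 control samples, grouped and numbered by their titles. The authors deposited 1 table with an estimated count and an FPKM value per gene and sample, per the file headers. Per the submitters' processing notes, the tools were TopHat2 2.0.3.12 and Bowtie2, with build Rnor_6.0. Not given in the sources used here were the counter, annotation release, strandedness and handling of multi-mapped reads. Per sample, 90.7% to 91.5% of the nonzero count values the authors deposited were whole, and all were rounded; tests had been planned for raw counts.

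The main test was edgeR 4.0.16 (R 4.3.3), quasi-likelihood, TMM, no covariates, after filterByExpr (minimum count 10, minimum total 15), with Benjamini-Hochberg adjustment over 15250 genes. Standard errors were derived from the fold change and its F statistic. Alternatives were DESeq2 1.42.0, limma-voom (limma 3.58.1), other scalings and filters, limma on log2 of the FPKM the authors deposited plus 1 or 0.1, a replicate block, and leaving out each sample. On simulated data with 15250 genes, 100% of 4-fold rises, 80% of 2-fold rises and 64% of falls to 0.5 of the level were recovered, and 21 of the 193 calls were false, a larger share than the threshold of 0.05 aims at. Changes were planted only in genes with a mean count of at least 50. The recovery rates therefore do not cover Camp, Ngp, Mpo and Fpr1, which had fewer counts. No pair of samples within a group agreed within sampling noise (chi-square per degree of freedom 23.2 to 52.6). The members, lists and markers were chosen with earlier results of these data known. Genes named beside the members are, per list, the 3 tested non-members with the smallest p and the most abundant one, plus the nearest in pattern. Of these, 1 gene is not reported here; others are said to be chosen after their values were seen.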

Additional observations from a re-analysis of the deposited data

How the results depend on the processing

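Lcn2 was called higher under every alternative run. The count of members called higher was 1 in the main test, 2 with DESeq2 and 2 with no filter on low counts, Mpo being the addition in both, and 1 to 3 when 1 sample was left out. No member was called lower under any alternative. The other neutrophil genes called higher numbered 15 to 38 with 1 sample left out, lowest without control replicate 3. Those called lower numbered 2 in the main test, 4 with DESeq2, 4 with no filter and 0 to 4 with 1 sample left out. Over all genes, leaving out 1 sample gave 481 to 1394 higher and 212 to 978 lower, against 1221 and 779 with all samples. The direction of Cebpd (log2 fold change 0.31, not called) turned to -0.01608 without control replicate 3 and to -0.08807 without MCT replicate 1, in a range up to 0.6845 without control replicate 1. The median SD of the members over the MCT samples was 0.878 and stayed within 1.5 times of that on the FPKM scale and with median-of-ratios size factors.

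Replicate numbers do not pair the samples: deviations of same-numbered samples correlated at -0.0649, -0.077 and -0.0301, and for 0 of 3 pairs was the own number the best match. With the replicate block 917 genes were higher and 546 lower, and 1 member was called. Estimates for S100a9 and S100a8 under the block were 1.685 and 1.519 (log2), near those of limma-voom without a block, 1.855 and 1.538. With 3 samples a group an exact permutation test of 1 gene cannot go below p = 0.1. At this depth Fpr1 and Ngp, with at most 4 and 23 counts per sample, cannot show modest differences.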
